A study of Mus musculus with 8 samples.

Results

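Transient receptor potential (TRP) channels are the cation channels with which sensory neurons report heat, cold and irritant chemicals. The genes described here are 9 TRP channel genes, Trpv1, Trpa1, Trpm8, Trpv2, Trpm2, Trpm3, Trpm4, Trpm7 and Trpc1, taken by their gene symbol from a table of 24421 genes. All 9 passed the filter on low counts, which left 17328 genes to be tested.

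The RNA came from dorsal root ganglia, the clusters of sensory nerve cell bodies beside the spinal cord, of C57BL/6J mice. The ganglia at L3 to L5 were taken from untreated mice (0d) and from mice at 1, 3 and 30 days after 20 µL of 1% carrageenan was injected under the skin of the left hind paw (1d, 3d and 30d). Carrageenan, extracted from seaweed, sets off a local inflammation of the paw. The mice were 8 weeks old by the series' description, with a wider range in the study's methods, male and of one strain with no transgene or mutant allele named, and each time point had 2 libraries, each a pool of 2 to 3 mice. The 0d mice were uninjected, so no vehicle-injected group stands beside the carrageenan groups, and the p-values measure the spread between pools. Uninjected mice were sampled at 0d only, so at later days injection cannot be told apart from elapsed time. The labels call the cells DRG neurons, while the material was whole ganglia, and the markers of sensory neurons, glia, vessels and blood were all counted. In such bulk RNA, fewer cells of a type and less RNA per cell cannot be told apart. The libraries held 44123208 to 73580338 counts, of which the 9 genes took 0.0521% to 0.0545%.

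TRPV1 opens to noxious heat, acid and capsaicin, and marks many peptidergic pain-sensing neurons (nociceptors). TRPA1 opens to electrophilic irritants such as mustard oil and overlaps in part with the TRPV1 population. TRPM8 opens to cooling and menthol and marks a separate small group of cold-sensing neurons. In inflamed tissue, TRPV1 and TRPA1 are known to be sensitised by kinases that phosphorylate the channel and by phospholipase C, which cleaves a membrane lipid, so a change in sensitivity needs no change in mRNA.

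The members differ in the sequence upstream of their start. RefSeq windows (GRCm38.p6) of 250 bases before the start were found for 7 of the 9 genes, and not for Trpa1 and Trpm4. The median over 32841 windows was 6 CpG pairs, with quartiles of 2 and 16. Trpm8 had 1, Trpv1 had 2 and Trpv2 had 2, and 7.86%, 18.8% and 18.8% of all windows had fewer. Trpm2 had 10, Trpm3 and Trpc1 each had 17, and Trpm7, a gene expressed in most tissues, had 26, with 90.4% of windows below it. The windows of Trpv1 (chr11:73233899-73234148, plus strand), Trpm8 (chr1:88306485-88306661, plus strand, the 177 bases ahead of any annotated exon) and Trpm7 (chr2:126876262-126876511, minus strand) are printed as the contrast between both ends of that range. Capitals mark CG pairs and, in Trpv1 and Trpm8, CCAAT read on the other strand.
Trpv1: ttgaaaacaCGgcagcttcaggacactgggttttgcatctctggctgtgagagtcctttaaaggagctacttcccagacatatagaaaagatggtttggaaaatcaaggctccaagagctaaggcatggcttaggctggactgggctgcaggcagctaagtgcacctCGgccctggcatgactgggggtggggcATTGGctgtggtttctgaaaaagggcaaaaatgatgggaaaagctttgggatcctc
Trpm8: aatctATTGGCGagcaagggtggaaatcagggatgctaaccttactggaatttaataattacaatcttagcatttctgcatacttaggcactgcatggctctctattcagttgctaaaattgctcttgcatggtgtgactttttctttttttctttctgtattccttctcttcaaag
Trpm7: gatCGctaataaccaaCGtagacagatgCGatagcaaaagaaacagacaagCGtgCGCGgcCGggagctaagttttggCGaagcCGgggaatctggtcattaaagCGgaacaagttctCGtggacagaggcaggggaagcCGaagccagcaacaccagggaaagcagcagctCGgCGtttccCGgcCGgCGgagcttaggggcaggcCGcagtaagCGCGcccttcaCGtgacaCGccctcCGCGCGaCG

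Both strands of the windows were searched for 5 short motifs, and a match here describes letters only. CCAAT, held by 33.9% of all windows, was found in 3 of the 7 genes, at 56 bases before the start of Trpv1, 245 before that of Trpm8 and 67 before that of Trpm3. TATAAA, held by 12.4%, was found in 2, at 30 bases before the start of Trpm8 and 240 before that of Trpm2. The Trpm8 match lies past the first base of an annotated Trpm8 exon, and so outside the printed stretch. GGGCGG, held by 32.7%, was found in 2, with 3 copies before Trpc1 and 1 before Trpm2. The Trpc1 copy nearest the start, at 22 bases, likewise lies past the first base of an annotated exon of its gene. The cyclic AMP response element TGACGTCA and the AP-1 element TGANTCA, held by 1.55% and 6.75% of windows, were in 0 of the 7.

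Levels between genes were compared per kilobase of exon, as RPKM. Trpv1 was the highest member, with a mean of 40.1 RPKM and a range of 36.4 to 43.1 over the 8 libraries, above 88.4% of the tested genes. Trpv2, a channel of larger sensory neurons and of many other cells, followed at 28.4 RPKM (27.0 to 30.0). Trpa1 had 14.4 RPKM (12.4 to 16.2) and Trpm8 12.2 RPKM (11.2 to 13.9). The ranges of Trpa1 and Trpm8 overlapped, and Trpa1 was above Trpm8 in 6 of the 8 libraries. Trpc1, a channel subunit of wide expression, had 9.14 RPKM (8.21 to 9.80), and Trpm7, a channel fused to a kinase that carries magnesium, had 8.14 RPKM (7.68 to 8.60). These ranges overlapped as well, but Trpc1 was above Trpm7 in all 8 libraries. The lower end was held by Trpm4, a channel opened by intracellular calcium, at 7.18 RPKM, Trpm2, a channel opened by oxidative stress, at 5.40 RPKM, and Trpm3, a heat- and pregnenolone sulphate-sensitive channel, at 4.51 RPKM. The mean of the highest member was 8.91 times that of the lowest. Apart from the 2 overlapping pairs, each neighbour in this order was separated in every library.

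**Figure D1:**
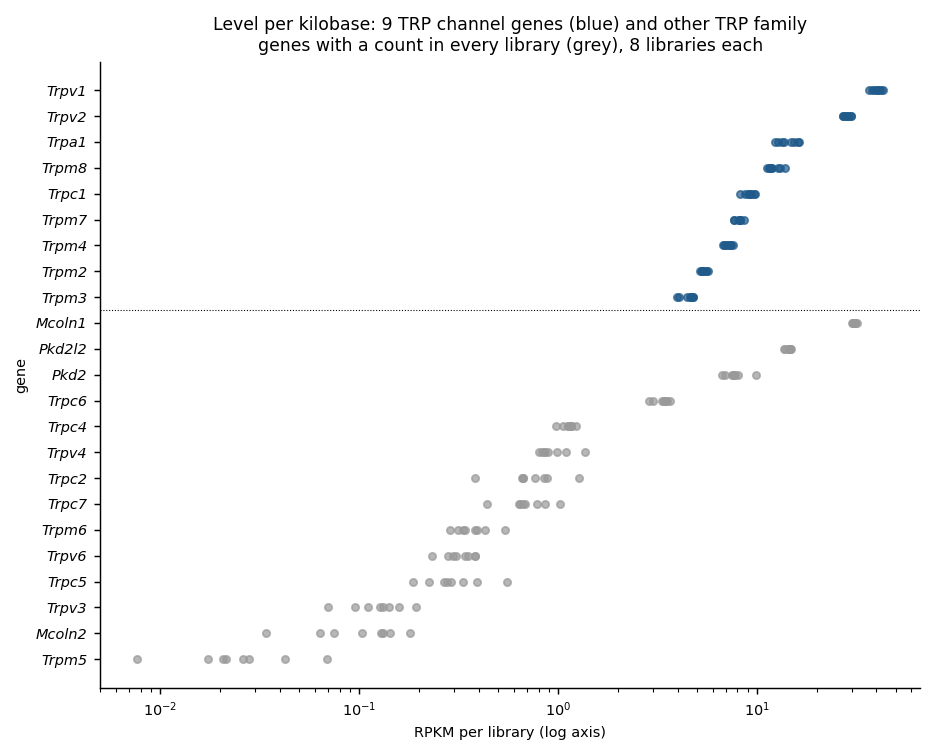
Level of each TRP channel gene in RPKM on a log axis, 1 point per library, 8 libraries per gene, with the 9 genes in blue and other TRP family genes that had a count in every library in grey. Trpv1 lies at the top with 36.4 to 43.1 RPKM, the Trpa1 and Trpm8 points overlap, and among the grey genes shown Mcoln1 reaches the level of Trpv2.

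Among the members, Trpa1 varied most over the time course. Its level, in CPM (counts scaled by TMM to a common library size), was 57.1 and 58.8 in the 0d libraries, 63.2 and 65.3 in those of 1d, 69.2 and 69.1 in those of 3d, and 54.4 and 52.9 in those of 30d. Both 3d libraries were above every other library, both 30d libraries were below every other library, and no time points overlapped. Its highest library was 1.31 times its lowest, against 1.10 to 1.23 for the other members. These values rest on 2866 to 5052 counts per library, which leave a counting error of 1.41% to 1.87%.

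Trpa1 fell from 3d to 30d, from 69.2 ± 0.0821 to 53.6 ± 1.02 CPM (mean and SD, n = 2). The log2 fold change was -0.37 (SE 0.05, 95% interval -0.48 to -0.25), a change of -22.5%, with an adjusted p of 0.00491 by edgeR's quasi-likelihood test with Benjamini-Hochberg adjustment over all genes. It was the single member of 9 called, that is, past an adjusted p of 0.05, in this comparison, in which 0.935% of the 17328 tested genes were called. By p it ranked 25 among all tested genes. The direction was the common one, since 126 of the 162 called genes, or 0.727% of those tested, were lower at 30d. The value was -0.37 without either 3d library, but the adjusted p was then 0.129 or 0.118.

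Trpa1 also fell from 1d to 30d, from 64.3 ± 1.54 to 53.6 ± 1.02 CPM. The log2 fold change was -0.26 (SE 0.05, 95% interval -0.38 to -0.14) with an adjusted p of 0.0477 by the same edgeR test, and again 1 member of 9 was called, beside 0.571% of all tested genes (0.514% lower at 30d). This call was near the threshold and was lost under 6 of 11 other settings, with adjusted p up to 0.181 across them, and without 5 of the 8 libraries in turn.

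Against the untreated mice Trpa1 was not called. The log2 fold change was 0.15 (SE 0.05) at 1d with an adjusted p of 0.814 by edgeR, 0.26 (SE 0.05, 95% interval 0.14 to 0.37) at 3d with an adjusted p of 0.0981, and -0.11 (SE 0.05) at 30d with an adjusted p of 0.425. The 3d value passed the threshold under 3 of 11 other settings, including DESeq2 (adjusted p = 0.0186), with a fold change of 0.25 to 0.26 in all. None of the 9 members was called at 1d, 3d or 30d against 0d, where 0.346%, 0.219% and 0.0231% of tested genes were. At an unadjusted p under 0.05, the members numbered 1, 2 and 0, beside 4.47%, 5.94% and 12.3% of all tested genes. DESeq2 called 0, 1 and 0 of the members, beside 110, 109 and 184 genes in all. The comparison of 3d with 1d called 0 of 9 members, with 0.289% of all genes called. There, 0 members had an unadjusted p under 0.05, beside 4.24% of all genes, and DESeq2 called 0, beside 110 genes in all. The comparisons with 0d share the same 2 untreated libraries, and those with 3d or 30d share theirs.

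**Figure D2:**
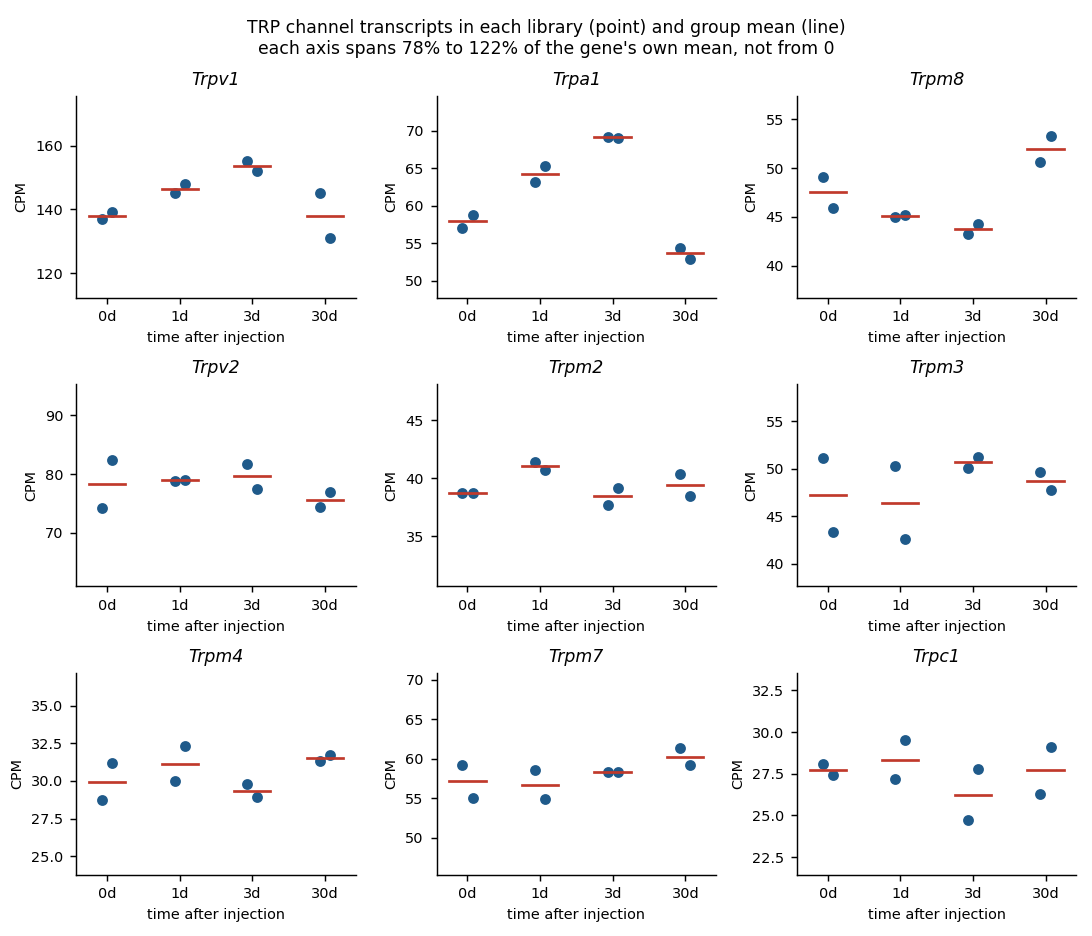
CPM of each of the 9 TRP channel genes by time after injection, 1 point per library (2 per time point) with a red line for the mean, on axes that span the same relative range around each gene's own mean and do not start at 0. Trpa1 runs from 57.1 and 58.8 CPM at 0d to 69.2 and 69.1 at 3d and to 54.4 and 52.9 at 30d, Trpm8 runs the other way, and the points of most other genes overlap between time points.

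Trpm8 had the opposite course. The 0d libraries held 49.1 and 45.9 CPM, the 1d libraries 45.0 and 45.2, the 3d libraries 43.2 and 44.3, and the 30d libraries 50.6 and 53.3. Both 30d libraries were above the other 6, and both 3d libraries were below them. The log2 difference between 30d and 3d was 0.25 (SE 0.06, 95% interval 0.11 to 0.38), which did not pass the threshold (adjusted p = 0.0875 by edgeR's quasi-likelihood test). Trpm8 passed under DESeq2 (adjusted p = 0.0383) and with no filter on low counts (adjusted p = 0.0423). The difference between 30d and 1d was 0.20 (SE 0.06, adjusted p = 0.226 by edgeR), and against 0d the values were -0.07, -0.12 and 0.13 at 1d, 3d and 30d, all uncalled.

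Because the courses of Trpa1 and Trpm8 were opposite, the ratio of their levels per kilobase was set out for each library. Trpa1 over Trpm8 was 1.05 and 1.16 before injection, 1.27 and 1.30 after 1 day, 1.44 and 1.41 after 3 days, and 0.969 and 0.896 after 30 days. The 4 time points did not overlap, and at 30d alone Trpm8 was the more abundant of the pair in both libraries. The ratio has no test of its own here and is given as a description. Against Scn10a, the sodium channel Nav1.8 of nociceptors, Trpa1 stood at 0.0810 to 0.0865 in the 6 libraries of 0d, 1d and 3d, and at 0.0724 and 0.0751 at 30d. Against Calca, which encodes the neuropeptide CGRP, it stood at 0.0228 to 0.0259 in all 8 libraries, with every time point overlapping at least one other. Against Mrgprd, a receptor of nonpeptidergic nociceptors, it stood at 0.240 to 0.253 in the 0d and 1d libraries, 0.299 and 0.309 at 3d, and 0.221 and 0.224 at 30d.

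Trpv1 was at 137 and 139 CPM in the untreated mice, 145 and 148 in the 1d libraries, 155 and 152 in the 3d libraries, and 145 and 131 in the 30d libraries. The libraries of 0d, 1d and 3d did not overlap and were ordered by day, while the pair of 30d libraries spanned the range from below 0d to the level of 1d. The log2 fold change was 0.08 (SE 0.05) at 1d, 0.15 (SE 0.05, 95% interval 0.04 to 0.26) at 3d and 0.00 (SE 0.05, 95% interval -0.11 to 0.10) at 30d against 0d, with adjusted p of 1, 0.552 and 0.979 by edgeR. Between 30d and 3d it was -0.15 (SE 0.05, adjusted p = 0.205 by edgeR). Without the first 30d library this difference was -0.23 (adjusted p = 0.027), and without the second it was -0.08 (adjusted p = 0.811). The ratio of Trpv1 to Trpa1 per kilobase was 2.61 to 2.86 in the libraries of 0d, 1d and 3d, and 3.17 and 2.93 at 30d.

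The other 6 members stayed within narrow bounds and were called in no comparison. Trpv2 ranged from 74.3 to 82.4 CPM, Trpm2 from 37.7 to 41.4, Trpm3 from 42.6 to 51.3, Trpm4 from 28.7 to 32.3, Trpm7 from 54.9 to 61.4 and Trpc1 from 24.7 to 29.5. The difference of greatest size among them was that of Trpm3 between 3d and 1d, a log2 value of 0.13 (SE 0.09, 95% interval -0.06 to 0.31). The 95% intervals of these 6 genes reached from -0.29 to 0.31 over the 6 comparisons. Relative to its level, Trpm3 also had the widest gaps between replicates of these 6 genes, with 51.2 and 43.4 CPM at 0d and 50.3 and 42.6 at 1d, so both time points covered nearly the whole range of the gene. Trpm2 was at 38.7 CPM in both 0d libraries, with 41.4 and 40.7 at 1d, a non-overlapping log2 difference of 0.09 (SE 0.06) with an adjusted p of 1 by edgeR. Trpm7 held 58.3 and 58.4 CPM at 3d and 61.4 and 59.2 at 30d, a log2 difference of 0.05 (SE 0.06, adjusted p = 0.789 by edgeR).

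**Figure D3:**
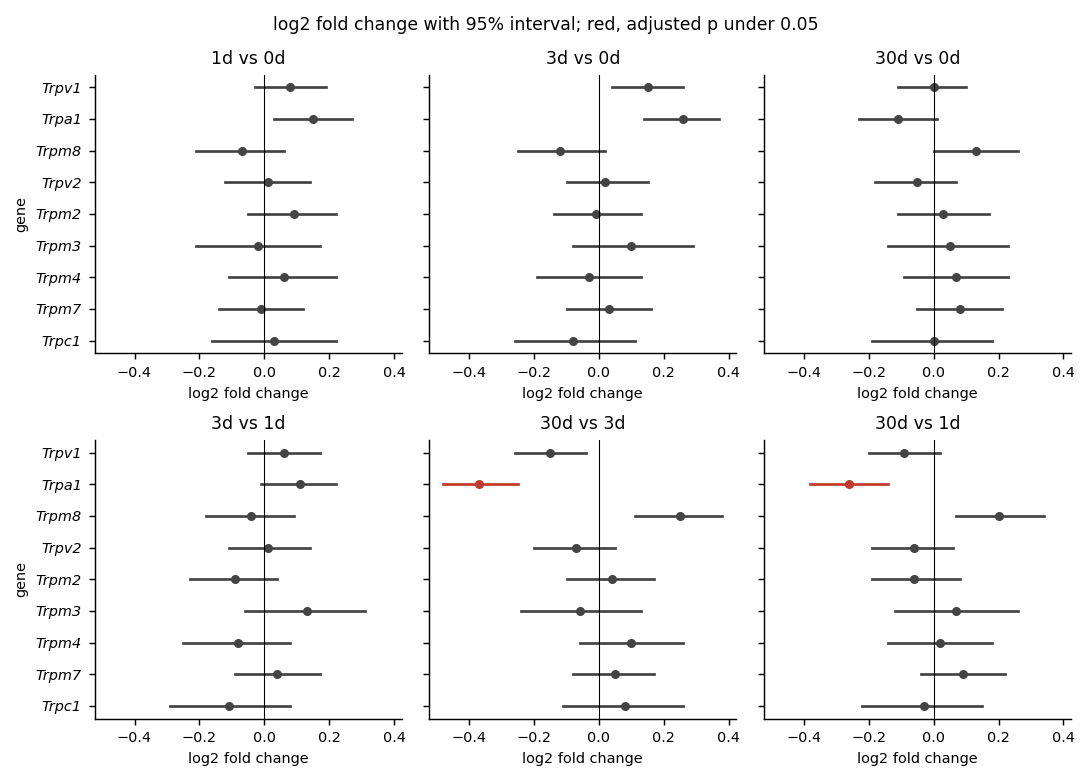
Log2 fold change (point) with its 95% interval (line) of the 9 TRP channel genes in the 6 comparisons, the first named time point minus the second, with an adjusted p under 0.05 in red. Red marks Trpa1 between 30d and 3d (-0.37) and between 30d and 1d (-0.26), and the interval of Trpm8 between 30d and 3d (0.11 to 0.38) lies on the other side of 0.

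The median size of the members' log2 fold change was 0.0783 at 3d against 0d and 0.0769 at 30d against 3d, while over all tested genes it was 0.0815 and 0.111. It was above that of all genes in the comparison of 3d with 1d, 0.0848 beside 0.0765. Between 30d and 3d, 7 of the 9 members had libraries that did not overlap, 3 higher and 4 lower, beside 46.4% of all tested genes. The members that did not overlap numbered 4, 3 and 3 of 9 at 1d, 3d and 30d against 0d, 5 between 3d and 1d, and 5 between 30d and 1d, beside 31.9%, 39.5%, 39.6%, 37.6% and 40% of all genes. With 2 libraries a group, separation of this kind was thus common in the table as a whole.

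The other TRP family genes supply the rest of the channel repertoire. Of 19 listed, 15 were tested, and 0 were called in any of the 6 comparisons by edgeR or by DESeq2. At an unadjusted p under 0.05, edgeR had 1 of the 15 at 30d against 0d, 2 at 30d against 3d, 2 at 30d against 1d and 0 in the others, while 12.3%, 13% and 11.7% of all tested genes passed in those 3 comparisons. Mcoln1, a lysosomal channel, was at 60.4 to 64.0 CPM, or a mean of 30.9 RPKM. Pkd2l2 had 14.5 RPKM, but 15.6% of its exon length is shared with Fam13b. Trpc2 shares all of its exon length with other gene entries of the table, so its reads cannot be assigned to it alone. Trpv5, Trpm1, Mcoln3 and Pkd2l1 did not pass the filter.

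The genes with the smallest p in this family were mostly low. Trpv4, an osmosensitive channel, was at 2.76 and 2.59 CPM in the 0d libraries and 4.41 and 3.53 in the 30d libraries, a log2 difference of 0.57 (SE 0.22, adjusted p = 0.314 by edgeR). Trpc7 was at 3.16 and 3.78 CPM in the 3d libraries and 1.62 and 2.34 in the 30d libraries, a log2 difference of -0.80 (SE 0.25, adjusted p = 0.16 by edgeR). Trpc2 differed by 1.05 between 30d and 1d (SE 0.29, adjusted p = 0.175 by edgeR). For Pkd2 the difference between 30d and 1d was 0.30 (SE 0.11, adjusted p = 0.332), with 1 of its 30d libraries at 51.4 CPM and the other at 40.6. Trpc6 at 1d and Trpc5 at 3d against 0d had log2 values of 0.14 and -0.60 with adjusted p of 1 and 0.984 by edgeR.

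Of 31 genes listed as regulators of TRP channels, 30 were tested and 1 was called by edgeR between 30d and 3d (0.935% of all tested genes called), with 0 called in the other 5 comparisons. Tmem100, an adaptor protein that joins TRPA1 and TRPV1 in sensory neurons, was at 38.0 CPM in both 0d libraries, 46.5 and 44.2 in the 1d libraries, 48.2 and 46.9 in the 3d libraries, and 40.1 and 35.9 in the 30d libraries. Both 1d and both 3d libraries were above all 4 libraries of 0d and 30d. Tmem100 fell from 3d to 30d by 0.33 on the log2 scale (SE 0.07, adjusted p = 0.0375 by edgeR). At 3d against 0d it had a log2 value of 0.32 (SE 0.07, adjusted p = 0.0999 by edgeR), and at 1d of 0.25 (SE 0.07, adjusted p = 0.329). DESeq2 called it in the comparison of 3d with 0d too. At an unadjusted p under 0.05, 2, 3 and 6 of the 30 regulators passed at 1d, 3d and 30d against 0d, 0 between 3d and 1d, 7 between 30d and 3d and 6 between 30d and 1d, beside 4.47%, 5.94%, 12.3%, 4.24%, 13% and 11.7% of all tested genes.

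Pirt, a membrane protein that binds TRPV1 and TRPM8, was at 804 and 798 CPM at 3d and 735 and 716 at 30d, a log2 difference of -0.14 (SE 0.04, adjusted p = 0.165 by edgeR). Syt9, a vesicle protein, differed by -0.19 between 30d and 1d (SE 0.05, adjusted p = 0.189). Against 0d, Kcnip3 had 0.12 and Snapin -0.14 at 30d, Snapin -0.12 at 1d and Plcb1 0.14 at 3d, with adjusted p from 0.263 to 1 by edgeR. Snapin shares 18.5% of its exon length with Ilf2. Plcb3 and Cdk5 differed by -0.08 and -0.07 between 3d and 1d, with an adjusted p of 1 for both. Between 30d and 3d, 6 of the 30 regulators had a log2 fold change above 0, and their median was -0.05, while the median over all tested genes was 0.00.

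The neurons that carry Trpv1 and Trpa1 are known by their peptides, sodium channels and receptors. Of 20 listed nociceptor genes, 19 were tested. At 3d, 2 rose against 0d, beside 0.219% of all tested genes called, and 6 of the 19 had an unadjusted p under 0.05 beside 5.94% of all genes. Calca went from 798 and 892 CPM to 1040 and 1080, a log2 change of 0.32 (SE 0.05, adjusted p = 0.0237 by edgeR), and Scn10a from 1020 and 1080 to 1230 and 1220, a change of 0.22 (SE 0.04, adjusted p = 0.0499).

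Between 3d and 30d, 5 of the 19 fell and 0 rose by edgeR, while DESeq2 called these and 2 more, P2rx3 and Scn10a. Over all tested genes, edgeR called 0.727% lower and 0.208% higher at 30d, and DESeq2 called 378 genes in all. At an unadjusted p under 0.05, edgeR had 7 of the 19, beside 13% of all tested genes. Calca reached 791 and 784 CPM at 30d, a log2 change of -0.43 (SE 0.05, adjusted p = 0.00201 by edgeR). Adcyap1, which encodes the neuropeptide PACAP, went from 91.8 and 88.5 CPM to 66.6 and 61.4, a change of -0.49 (SE 0.06, adjusted p = 0.00201). Calcb, the second CGRP gene, fell by 0.36 (SE 0.06), Tac1, the substance P gene, by 0.28 (SE 0.05), and Ret, a receptor for glial-derived growth factors, by 0.22 (SE 0.05), with adjusted p of 0.0128, 0.011 and 0.0477 by edgeR. The 30d libraries of each of these 5 genes were below both 3d libraries. Between 1d and 30d, Adcyap1 fell by 0.44 (SE 0.06, adjusted p = 0.00358 by edgeR) and Calcb by 0.34 (SE 0.06, adjusted p = 0.0213). These were the 2 of 19 called, beside 0.571% of all tested genes (0.514% lower at 30d). At an unadjusted p under 0.05, edgeR had 7 of the 19, beside 11.7% of all tested genes. DESeq2 called Calca as well, among 229 genes in all.

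By edgeR, 0 of the 19 nociceptor genes were called at 1d or at 30d against 0d, or between 3d and 1d. There, 4, 5 and 3 had an unadjusted p under 0.05, beside 4.47%, 12.3% and 4.24% of all tested genes. DESeq2 called 0, 1 (Adcyap1) and 2 (Calca and Tac1) of the 19, beside 110, 184 and 110 genes in all. Scn10a and Adcyap1 had log2 values of 0.14 and 0.17 at 1d (adjusted p of 0.518 and 0.882 by edgeR), Adcyap1 and Calcb -0.28 and -0.18 at 30d (0.121 and 0.275), and Tac1 and Calca 0.22 and 0.23 between 3d and 1d (0.0827 and 0.111). The median log2 fold change of the 19 genes between 30d and 3d was -0.12, with 2 above 0.

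Of 10 pan-neuronal genes, edgeR called 1 between 30d and 3d, beside 0.935% of all tested genes called. DESeq2 called 3, Gap43 and Tubb3 lower and Snap25 higher at 30d, beside 378 genes in all. Gap43, a growth-associated protein of axons, fell from 205 and 202 CPM at 3d to 174 and 167 at 30d, a log2 change of -0.26 (SE 0.05, adjusted p = 0.0213 by edgeR). Tubb3, the neuronal tubulin, differed by -0.17 (SE 0.04, adjusted p = 0.0721 by edgeR). In the comparisons with 0d, Nefl, Elavl4, Snap25 and Gap43 had log2 values from -0.12 to 0.14, all uncalled by edgeR. At an unadjusted p under 0.05, edgeR had 0, 3 and 3 of the 10 at 1d, 3d and 30d against 0d. Of all tested genes, 4.47%, 5.94% and 12.3% passed there. Between 3d and 1d, 30d and 3d, and 30d and 1d it had 1, 4 and 2, beside 4.24%, 13% and 11.7%. The median of the 10 genes between 30d and 3d was -0.05.

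**Figure D4:**
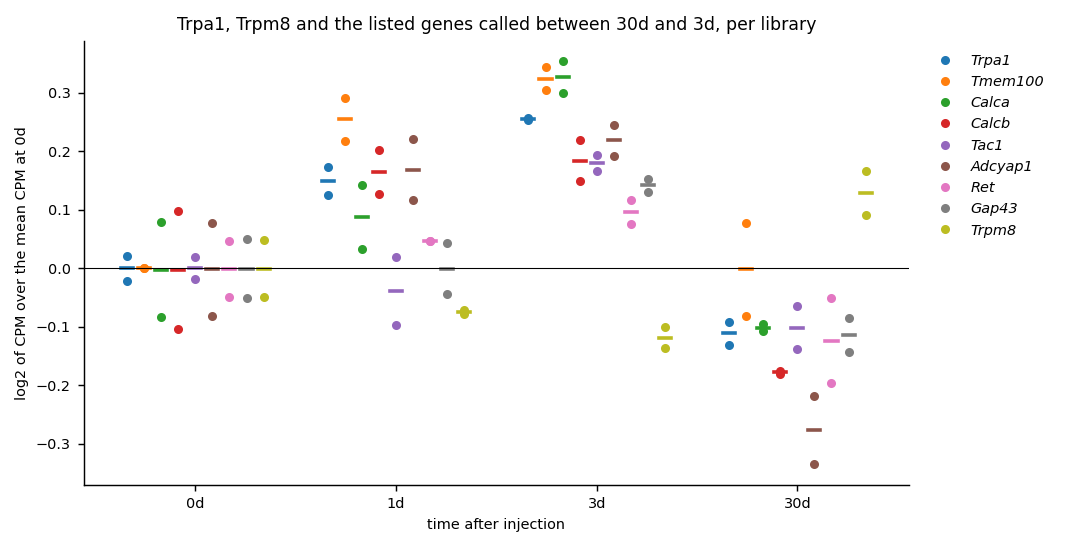
Log2 of CPM over the gene's mean CPM at 0d, 1 point per library (2 per time point) with a short line for the mean, for Trpa1, Trpm8 and the regulator, nociceptor and pan-neuronal genes called between 30d and 3d. At 3d the libraries of all these genes but Trpm8 are above 0, and at 30d all are below it except Trpm8 and 1 library of Tmem100.

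Marker genes of the cell types in the ganglion were summed in each library, and are given for 3d and 30d. Calls are by edgeR between these days, where 0.935% of all tested genes were called. For satellite glia the sum was 2930 CPM in both 3d libraries and 2520 to 2590 at 30d, where 1 of 6 markers (Apoe) was called lower. The sum for sensory neurons was 11000 to 11200 CPM at 3d and 10400 to 10600 at 30d, with 0 of 8 called. Schwann cell markers had 8940 to 9010 CPM at 3d and 5430 to 7670 at 30d (0 of 6 called), red blood cell markers 181 to 189 and 276 to 515 (0 of 5), and macrophage markers 95.4 to 100 and 104 to 105 (0 of 8). Among the red blood cell markers, Hba-a1 and Hba-a2 had identical CPM in every library, so they are not separate markers. The sums of both days overlapped for neutrophils, with 76.3 to 80.7 CPM at 3d and 57.5 to 114 at 30d (0 of 3), for large-fibre neurons, with 3850 to 3960 and 3640 to 3900 (0 of 5), and for skeletal muscle, with 57.9 to 58.7 and 19.1 to 102, where Myh1 alone of 6 was called higher at 30d. Vascular markers had 168 to 169 CPM at 3d and 161 to 168 at 30d (0 of 7), and fibroblast markers 929 to 931 and 929 to 1000 (0 of 4). DESeq2 also called Tubb3 of the sensory neuron markers, Kcnj10 of satellite glia, Ncmap of Schwann cells, Cx3cr1 of macrophages and Pvalb of large-fibre neurons in this comparison, genes named after their values were seen. It called 378 genes in all between 30d and 3d. In edgeR's test of 3d against 0d, the markers called were Pvalb, Cx3cr1 and Myh1, all lower at 3d, beside 0.219% of all tested genes. Between 30d and 1d, Apoe alone of the listed markers was called by edgeR, lower at 30d, beside 0.571% of all tested genes. All the listed markers were counted in every library except Ly6g, which was not in the table used. Each sum weighs abundant genes most, and not all markers of a lower sum fell. At 30d against 3d, 2 of 8 sensory neuron, 1 of 6 satellite glia and 1 of 6 Schwann cell markers had positive log2 changes. The part of these values in the Trpa1 result was not tested.

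The genes whose log2 CPM was most like that of a member over the 8 libraries were sought among 10401 genes of at least 10 CPM on average, as a description. For Trpa1 they were Nup93 (Pearson r = 0.986), Ehd3 (0.983), Vgf (0.980), Laptm4b (0.977) and Etv5 (0.976). Vgf, a neuropeptide precursor, had 138 and 164 CPM in the 0d libraries, 243 and 248 in the 3d libraries and 128 and 96.9 in the 30d libraries. Etv5, an ETS transcription factor, had 98.6 and 101 CPM at 0d, 139 in both 3d libraries, and 97.4 and 81.7 at 30d. It rose at 3d against 0d by 0.47 (SE 0.07, adjusted p = 0.00794 by edgeR) and fell from 3d to 30d by 0.63 (SE 0.07, adjusted p = 0.000567). Nup93, Ehd3 and Laptm4b fell from 3d to 30d by 0.22, 0.20 and 0.24, with adjusted p of 0.0385, 0.022 and 0.0267 by edgeR, and Vgf had -1.12 (SE 0.16, adjusted p = 0.0778).

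For Trpm8 they were Ppip5k1 (0.980), Kndc1 (0.978), Wls (0.971), Ift172 (0.955) and Sv2b (0.955). Kndc1 had 27.4 and 27.7 CPM at 3d and 33.6 and 35.6 at 30d, a log2 difference of 0.33 (SE 0.07, adjusted p = 0.0531 by edgeR). For Trpv1 they were Amigo2 (0.980), Nptx2 (0.978), Samd1 (0.977), Jade2 (0.973) and Atg2a (0.972). Nptx2, a neuronal pentraxin, had 113 and 124 CPM in the 0d libraries, 177 and 178 in the 3d libraries and 130 and 93.4 in the 30d libraries, and was not called (adjusted p of 0.726 at 3d against 0d and 0.254 at 30d against 3d by edgeR). The nearest genes of the other members were Gskip for Trpv2 (0.948), Ern1 for Trpm2 (0.940), Soga1 for Trpm3 (0.966), Ppfia3 for Trpm4 (0.947), Dcp1a for Trpm7 (0.985) and Jtb for Trpc1 (0.958). The 8 points share time points and libraries. An r above 0.9 was found for 114 genes with Trpa1, 70 with Trpv1, 47 with Trpm8 and 116 with Trpm7, but for only 6 with Trpm2.

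In the mm10 annotation of the table, Trpa1 and Trpm8 both lie on chromosome 1, at 14872648 to 14918862 (minus strand, 27 exon blocks) and 88306712 to 88388851 (plus strand, 27 exon blocks). Trpv1 and Trpv2 both lie on the plus strand of chromosome 11, at 73234149 to 73261322 and 62574486 to 62600305, each with 16 exon blocks. None of the 9 members shares exon bases with another gene of the table. At most 0.0898% of the words of 50 bases in the longest transcript of a member occurred in transcripts of another gene, so reads split between near-identical copies are few.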

How the data were processed

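RNA of 8 pools of dorsal root ganglia was sequenced on an Illumina instrument from TruSeq libraries. The authors used cutadapt 2.10 for trimming and STAR 2.7.5a for alignment to mm10, and counted reads on UCSC exons per gene with featureCounts 2.0.1, without strand and without multi-mapping reads. They deposited raw counts per gene in 1 table, with no normalization or filter, so antisense and overlapping genes cannot be separated.

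Genes were filtered with filterByExpr, scaled by TMM and tested in 1 quasi-likelihood fit over all 8 libraries (R 4.3.3, edgeR 4.0.16), with time point as the single term, robust estimation and the legacy dispersion method, in 6 comparisons. Calls are at a Benjamini-Hochberg adjusted p under 0.05 over 17328 genes. The standard error is the size of the log2 fold change over the square root of F. CPM are TMM-scaled, with 2 as the prior count of the log2 values used for correlations, and RPKM divide them by the deposited exon length. The fit was tested on simulated data. Alternatives used limma 3.58.1 and DESeq2 1.42.0. Replicates differed by more than counting noise (chi-square per degree of freedom of 7.1 to 25.0). Members and lists were chosen with earlier results of these data known. From the 4 lists of TRP, regulator, nociceptor and pan-neuronal genes, those called were named, or else the 2 with the smallest p, and the nearest genes were those with the highest r. The result of 1 listed gene is not reported here.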

Additional observations from a re-analysis of the deposited data

How the results depend on the processing

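The fall of Trpa1 from 3d to 30d kept its direction and its call under all 11 other settings (log2 fold change -0.37 to -0.35, adjusted p from 6.37e-06 to 0.0105), and lay between -0.39 and -0.35 over the 8 fits that each lacked 1 library, with the call lost without 3d replicate 1 (0.129) or 3d replicate 2 (0.118). The number of members called between 30d and 3d was 1, and 2 with no filter on low counts, DESeq2 or a threshold of 0.10, and 0 to 3 with a library left out. The fall from 1d to 30d was -0.25 under upper-quartile scaling and under library totals alone, and -0.26 with no robust estimation, the newer dispersion method, limma-voom or the compared groups alone, all uncalled, so that the count of 1 became 0 in these and at a threshold of 0.01. Leaving out libraries gave -0.29 to -0.24 and counts of 0 to 1. At 3d against 0d the count of 0 became 1, Trpa1 at 0.26, with no filter on low counts (adjusted p = 0.0324 by edgeR), DESeq2 (0.0186), the compared groups alone (0.0406) and a threshold of 0.10, and was 0 to 1 with a library left out. Trpm8 between 30d and 3d was called with no filter (0.24) and by DESeq2 (0.25), and ranged from 0.21 to 0.28 with a library left out, called without 30d replicate 1 (0.0464). The cause of these shifts was not tested.

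Of 1026 alternative values of the members, 39 had, before rounding, the opposite sign of an uncalled value, and 30 of them moved by at most 1 SE. The others came from leaving out 1 library, with ranges over the libraries left out of -0.08 to 0.07 for Trpv1 at 30d against 0d, -0.06 to 0.09 for Trpv2 at 1d against 0d, -0.05 to 0.10 for Trpv2 at 3d against 0d, -0.12 to 0.02 for Trpv2 at 30d against 0d, -0.15 to 0.10 for Trpm3 at 1d against 0d, -0.01 to 0.23 for Trpm3 at 3d against 0d, -0.07 to 0.17 for Trpm3 at 30d against 0d and -0.05 to 0.19 for Trpm3 at 30d against 1d. Trpv1 between 30d and 3d kept its sign, from -0.23 to -0.08, and was called without 30d replicate 1.

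The count of all genes called moved more than the members' values. The 60 genes at 1d against 0d became 95 with no filter, 110 by DESeq2 and 33 at a threshold of 0.01. The 38 at 3d became 89 with no filter, 20 with no robust estimation, 109 by DESeq2, 25 by limma-voom, 121 with the compared groups alone and 13 at a threshold of 0.01. The 4 at 30d became 177 with no filter, 184 by DESeq2, 2 by limma-voom, 72 at a threshold of 0.10, 1 at 0.01, and 0 with no robust estimation or the compared groups alone. The 50 between 3d and 1d became 99 with no filter, 110 by DESeq2, 260 with the compared groups alone, 81 and 20 at the thresholds of 0.10 and 0.01. The 162 between 30d and 3d became 358 with no filter, 92 with no robust estimation, 378 by DESeq2, 273 with the compared groups alone, 290 and 45 at the thresholds. The 99 between 30d and 1d became 213 with no filter, 229 by DESeq2 and 39 at a threshold of 0.01. With a library left out, the 6 counts ranged from 26 to 111, 1 to 121, 1 to 202, 5 to 117, 12 to 525 and 51 to 359.

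Over all genes, same-numbered libraries did not deviate together (correlations of -0.01 to 0.04 over the 6 pairs of time points). A batch that acts on some genes only could be missed this way, so a pairing is not excluded. With the replicate number as a block, Trpa1 was called in the same 2 comparisons (log2 fold change -0.37 and -0.26, adjusted p of 0.00441 and 0.0396 by edgeR), the members called were 0, 0, 0, 0, 1 and 1 in the order above, and 69, 77 and 159 genes were called at 30d against 0d, between 3d and 1d, and between 30d and 1d. Precision is limited by 2 pools a group, with a biological coefficient of variation of 8.85% across genes, and by counting error, 1.41% to 1.87% for Trpa1 and 2.21% to 2.82% for Trpc1.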
